A study of Mus musculus with 14 samples.

Results

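The 10 genes described here encode tumor necrosis factor (TNF) receptors, members of the receptor complex, inhibitors of cell death, and brakes on NF-κB signaling. They were taken from a list of names, drawn up with earlier results of these data known, and all 10 were found among the 21829 protein-coding genes of the mouse annotation (GRCm38, GENCODE release M21). ChIP-seq peaks were collected in each gene body and up to 50 kb on either side, and a promoter was taken as 1000 bp upstream to 100 bp downstream of any start site of a protein-coding transcript. The cells were 3T3-L1 adipocytes, a mouse preadipocyte line after 4 days of differentiation. They were left without treatment (control) or exposed for 1 h to forskolin (FSK, 10 µM), which activates adenylyl cyclase, to TNFα, or to both agents at once. Immunoprecipitation used antibodies to the CREB coactivator CRTC2, the NF-κB subunit p65, or H3AcK27, a histone acetylation found where promoters or enhancers are active. The study has 1 library for each antibody and treatment, 12 in all, so differences between treatments have no replicate check and were not tested. Intervals below are exact 95% Poisson limits of the tags in a peak and cover counting error only. They take tags at the same position as independent, so they are too narrow where tags repeat.

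TNFα binds the receptors TNFR1 (Tnfrsf1a) and TNFR2 (Tnfrsf1b). TNFR1 assembles a complex in which TRAF2, the kinase RIPK1, and the ubiquitin ligases cIAP1 (Birc2) and cIAP2 (Birc3) activate the kinases that release NF-κB. The complex can also turn to cell death through caspase-8, which c-FLIP (Cflar) restrains. NF-κB in turn is known to induce several of these components and also its own brakes, the ubiquitin-editing enzyme A20 (Tnfaip3) and its partner ABIN1 (Tnip1), which makes the family a standard setting for feedback control.

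Sites under the p65 peaks are shown first, since the results refer back to them. Letters are the plus strand of GRCm38 from RefSeq, 5′ to 3′, with matches on either strand in capitals. The matches are to the degenerate NF-κB consensus, to TGACG, the core of the cAMP response element (CRE), and to the AP1 site TGAGTCA. The segment upstream of Birc2 (chr9:7838176-7838338, intergenic) is shown because p65 was called there in both TNFα libraries, and the segment in a Traf2 intron (chr2:25534301-25534463) for the same reason. The segment in a Tnip1 intron (chr11:54961568-54961730) holds the exact NF-κB sequence. The Traf1 segment (chr2:34958180-34958342, intron of the longer transcripts, next to an internal start site) was under a CRTC2 peak with FSK and under a p65 peak with FSK and TNFα. For Tnfaip3 (chr10:19015403-19015432) and Birc3 (chr9:7873066-7873095) the match and 10 bases on either side are given.
Birc2: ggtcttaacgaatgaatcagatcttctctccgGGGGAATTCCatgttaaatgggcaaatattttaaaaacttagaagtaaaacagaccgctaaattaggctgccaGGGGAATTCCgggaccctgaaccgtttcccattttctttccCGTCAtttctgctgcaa
Traf2: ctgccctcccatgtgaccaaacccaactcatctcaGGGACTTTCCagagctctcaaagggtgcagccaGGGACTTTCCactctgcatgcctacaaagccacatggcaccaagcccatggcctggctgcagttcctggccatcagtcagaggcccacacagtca
Tnip1: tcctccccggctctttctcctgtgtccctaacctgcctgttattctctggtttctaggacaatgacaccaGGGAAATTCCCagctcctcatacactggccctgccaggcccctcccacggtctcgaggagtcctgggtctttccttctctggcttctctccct
Traf1: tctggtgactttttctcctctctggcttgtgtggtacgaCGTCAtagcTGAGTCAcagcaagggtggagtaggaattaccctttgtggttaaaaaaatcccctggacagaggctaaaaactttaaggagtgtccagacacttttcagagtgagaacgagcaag
Tnfaip3: ttgccaacagGGGGATTTCCgatggaaatt
Birc3: caccctggctGGGGATTTCCgtggctcttc
The Birc2 segment held 2 copies of GGGGAATTCC and a CRE, and the Traf2 segment held 2 copies of GGGACTTTCC. Tnfaip3 and Birc3 carried the same 10 letters, GGGGATTTCC, close to a start site. The Traf1 segment had a CRE and an AP1 site 4 bp apart and no NF-κB match.

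Libraries held between 9832884 tags (H3AcK27 with FSK) and 31807394 tags (CRTC2 with FSK and TNFα), and peak values are normalized tags, the authors' tag number per 10000000 tags of the library. The score of a peak counts at most 1 tag per position. The p65 control list held only 214 peaks, and its lowest score was 12, compared with 7 after FSK, 8 after TNFα, and 7 after both, so a p65 peak of score 7 to 11 in control cells would not have been listed. The adipocyte label was checked by acetylation at start sites. Only 3 of 8 adipocyte markers (Pparg, Fabp4, and Lpl) had an H3AcK27 region at a promoter in any list, whereas Adipoq, Cebpa, Plin1, Cidec, and Cd36 had none in all 4 lists. The preadipocyte markers Pdgfra and Ly6a had a region in every list, and Dlk1 in all but the FSK list.

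No p65 peak was called near any of the 10 genes in control cells. With FSK, 5 peaks lay near 4 genes (Traf1, Traf2, Cflar, and Tnip1), with TNFα 9 peaks lay near 7 genes, and with FSK and TNFα 15 peaks lay near 7 genes. Among all genes the shares with a p65 peak in the same kind of interval were 1.9% in control cells, 16.9% after FSK, 14.9% after TNFα, and 22.3% with both. Among the 11278 genes with H3AcK27 at a promoter in control cells, they were 22.7% after FSK, 20.7% after TNFα, and 29.7% with both. The intervals of the 10 genes were somewhat longer (median 127 kb, against 117 kb for all genes). All 5 peaks with FSK had a score of 7, which was both the lowest and the median score of that list. None was at a promoter, where the share of all genes was 0.586%. Peaks of score 12 or more lay near 0 genes with FSK, 3 with TNFα (1.49% of all genes), and 6 with FSK and TNFα (1.77% of all genes).

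Sites called with TNFα were often called again when FSK was added. Of the 9 peaks with TNFα near these genes, 5 (55.6%) overlapped a peak of the FSK and TNFα list, compared with 11.3% of the whole TNFα list. In the other direction these were 33.3% of the 15 peaks, against 6.44% of the whole list. The 5 sites lay near 6 genes (Traf2, Birc2, Birc3, Cflar, Tnfaip3, and Tnip1), since Birc2 and Birc3 are neighbors and share 1 of them. Such a shared site was found near 2.41% of all genes.

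**Figure D1:**
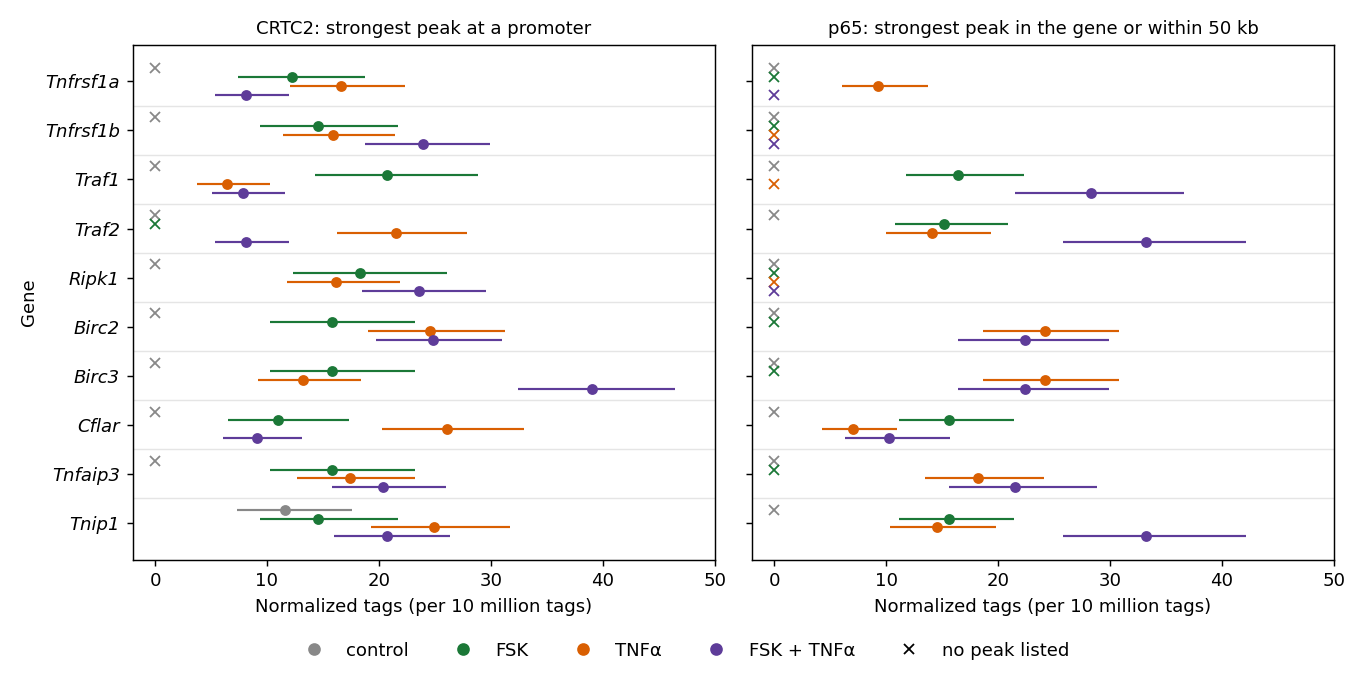
Strongest CRTC2 peak at a promoter (left) and strongest p65 peak in the gene or within 50 kb (right) for each gene, in normalized tags per 10000000; points are single libraries, bars are 95% Poisson limits (counting error only), and crosses at 0 mark lists with no peak. Birc3 has the highest CRTC2 value, 39.0 with FSK and TNFα, and no gene has a p65 peak in control cells.

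The genes for the receptors showed little p65 and had CRTC2 at the start site with every treatment. No p65 peak was called near Tnfrsf1b in any list. Tnfrsf1a had 1, of 9.29 normalized tags with TNFα, in an intron of Plekhg6 and nearest to the Plekhg6 start site. CRTC2 at the Tnfrsf1a promoter was not called in control cells and held 12.2 normalized tags after FSK, 16.6 after TNFα, and 8.17 with both. At Tnfrsf1b it was likewise absent from the control list and held 14.6, 15.9, and 23.9 normalized tags after FSK, TNFα, and both. The ratio of both treatments to TNFα was log2 -1.02 (-1.78 to -0.29) at Tnfrsf1a and 0.59 (0.03 to 1.17) at Tnfrsf1b, whereas the median over all CRTC2 peaks called in both libraries was -0.46. Less that median the value at Tnfrsf1a was -0.57, and by the score it was -0.26, so that it no longer passed 2-fold.

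Among the genes of the receptor complex, Traf1 and Traf2 had their strongest p65 peaks in the library with FSK and TNFα. Traf1, an adaptor that joins TRAF2 and the cIAPs, had no p65 peak in control cells or with TNFα and 1 after FSK, 19.1 kb downstream of a start site, outside the gene (16.4 normalized tags). With FSK and TNFα it had 4, and the strongest lay 98 bp upstream of the internal start site (28.3 normalized tags, 21.5 to 36.6, score 15), on the Traf1 segment printed above. CRTC2 at Traf1 promoters changed place between lists. With FSK it was called over that same segment (chr2:34958183-34958343, 20.7 normalized tags), with TNFα downstream of the start site (6.42), and with both 531 bp upstream of it (7.86).

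Traf2, which recruits the cIAPs to the receptor, had its main p65 site in an intron 12.5 kb from the start site. It was absent from the control and FSK lists and held 14.1 normalized tags (9.99 to 19.4) with TNFα and 33.2 (25.8 to 42.1) with FSK and TNFα. The intervals do not overlap, but they take the 38 and 68 tags as independent. The scores, with at most 1 tag per position, were 9 and 13. A p65 peak 2684 bp upstream of the start site was called only with FSK and TNFα (20.0 normalized tags, score 10), and its sequence held GGGGATTCCC and an AP1 site. Traf2 was the 1 gene of the 10 without a CRTC2 promoter peak with FSK, and its values were 21.5 with TNFα and 8.17 with both, at sites that did not overlap.

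Ripk1, the kinase of the complex, had no p65 peak in any list. Its CRTC2 promoter peak was absent in control cells and held 18.3 normalized tags after FSK, 16.2 after TNFα, and 23.6 with both. The interval of the ratio of both treatments to TNFα, log2 0.54 (-0.02 to 1.11), included 0. The median over all CRTC2 peaks called in both libraries, -0.46, lay below that interval. Less that median the value at Ripk1 was 1.0, and by the score it was 0.51.

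Birc2 and Birc3 lie side by side on chromosome 9 in the same direction, and their p65 peaks were found only after TNFα. The p65 peak upstream of Birc2 held 24.2 normalized tags (18.6 to 30.8, score 16, rank 53 of 2404) with TNFα and 22.4 (16.4 to 29.9, score 12) with FSK and TNFα. Its midpoint was 1188 and 1193 bp upstream of the start site, which is just outside the promoter as defined here. These values differ by less than their counting error. With both treatments a further peak was called in a Birc2 intron (13.2 normalized tags), over the exact NF-κB letters GGAAATTCCC. At the Birc3 start site p65 was called only with FSK and TNFα (19.5 normalized tags, 13.9 to 26.6, score 8), over GGGGATTTCC.

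CRTC2 at the Birc3 promoter had the highest value of the 10 promoters. It was not called in control cells and held 15.8 normalized tags (10.3 to 23.2) with FSK, 13.2 (9.21 to 18.4) after TNFα, and 39.0 (32.4 to 46.5) with FSK and TNFα. By tags, the combined value lies above both intervals, at log2 1.30 (0.68 to 1.97) over FSK and 1.56 (1.01 to 2.15) over TNFα. These intervals take repeated tags as independent. The peak had 26 tags at a score of 19 with FSK, 35 at 13 with TNFα, and 124 at 56 with both. Peaks at least 2-fold higher in these ratios made up 2.6% and 1.09% of all promoters with the peak in both lists, and Birc3 was the 1 gene among the 6 that could be compared in each. By the score per library the ratios were log2 0.61 over FSK, which is under 2-fold, and 1.84 over TNFα.
At Birc2 the promoter peak held 15.8 normalized tags after FSK, 24.6 after TNFα, and 24.8 with both. The FSK and combined peaks covered a full palindromic CRE close to the start site, at chr9:7837085-7837092, shown here with 11 bases on either side.
Birc2 CRE: ggccgttgaggTGACGTCAgcagacgcgca
With TNFα alone the peak lay 168 bp downstream of the start site and did not reach that CRE. Another CRTC2 peak, about 1.3 kb upstream and next to the p65 site, held 18.3 normalized tags with FSK and 34.6 with both, and was not called with TNFα alone.

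**Figure D2:**
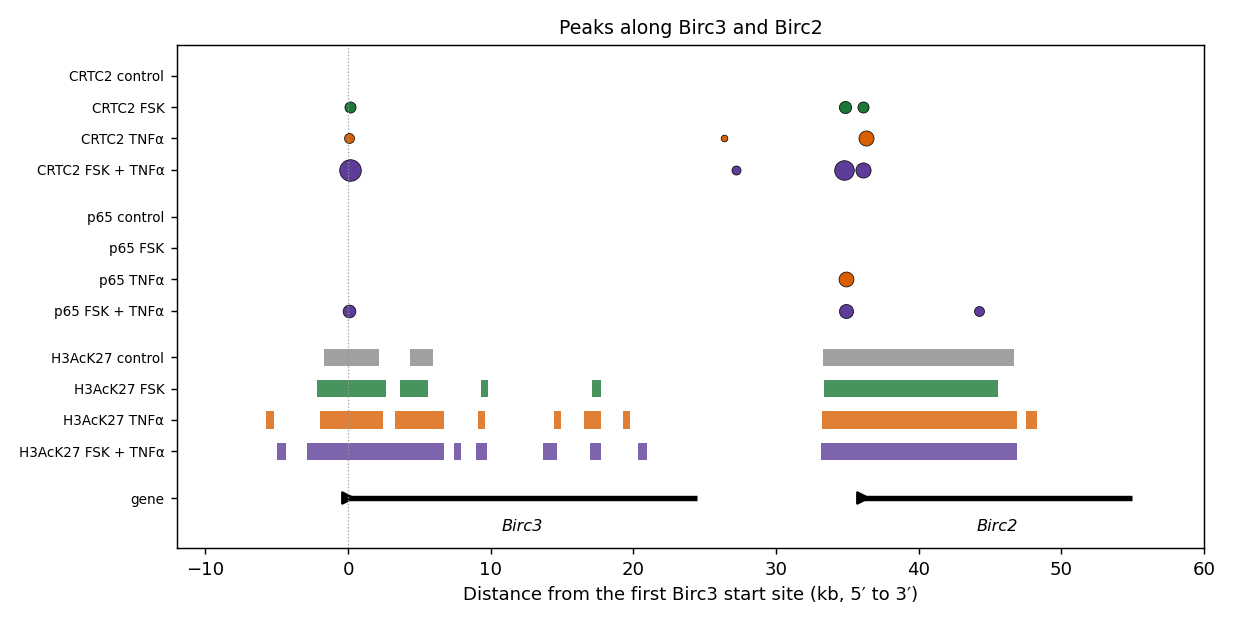
Peaks along Birc3 and Birc2 by distance from the first Birc3 start site (kb), 1 row per antibody and treatment; circles are CRTC2 and p65 peaks with size growing with normalized tags, bars are H3AcK27 regions, and arrowheads mark start sites. The p65 row is empty in control and FSK, and the largest circle is CRTC2 at Birc3 with FSK and TNFα.

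Cflar had weak p65 and a CRTC2 value that was highest with TNFα. Its p65 site in an intron, about 3.4 kb from the start site, held 7.06 normalized tags (4.25 to 11.0) with TNFα and 10.2 (6.34 to 15.7) with FSK and TNFα. FSK alone gave a different peak, 1.5 kb from the start site (15.6 normalized tags, score 7). CRTC2 at the promoter held 11.0 normalized tags after FSK, 26.1 after TNFα, and 9.12 with both, which is a log2 ratio of -1.52 (-2.19 to -0.87) of both to TNFα. A 2-fold lower value in this comparison was found at 19.6% of all promoters.

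The genes for the brakes had p65 after TNFα with and without FSK. At Tnfaip3, p65 was absent from the control and FSK lists and was called at the start site with TNFα (18.2 normalized tags, 13.5 to 24.1, score 14, rank 80) and with both (21.5, 15.6 to 28.8, score 15, rank 101). The overlap of the 2 intervals leaves no difference beyond counting error. Tnfaip3 was the only one of the 10 genes with p65 at a promoter after TNFα, and with both treatments there were 3 (Traf1, Birc3, and Tnfaip3). Among all genes these shares were 0.628% and 1.01%. TNFα alone gave 2 further p65 peaks at Tnfaip3, in an intron (10.4 normalized tags) and 38.0 kb upstream (13.4). CRTC2 at the promoter held 15.8 normalized tags after FSK, 17.4 after TNFα, and 20.4 with both, and the TNFα peak lay on the other side of the p65 site from the other two.

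Tnip1 shared the highest p65 value of the 10 genes with Traf2, in the library with FSK and TNFα. A peak in an intron, 1.83 kb from an internal start site, held 33.2 normalized tags (25.8 to 42.1, score 19, rank 47 of 4221). Another, 1.26 kb from an upstream start site, held 30.3 (23.2 to 38.8) over the exact NF-κB match printed above. With TNFα alone a nearby but separate peak was called (14.5 normalized tags, score 10). A site 9.1 kb upstream held 10.0 normalized tags with TNFα and 14.2 with both. Tnip1 was also the 1 gene with CRTC2 at a promoter in control cells, with 11.6 normalized tags, followed by 14.6 after FSK, 24.9 after TNFα, and 20.7 with both. The ratio of TNFα to control, log2 1.10 (0.38 to 1.86), was close to the median of all CRTC2 peaks called in both lists, 1.07.

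**Figure D3:**
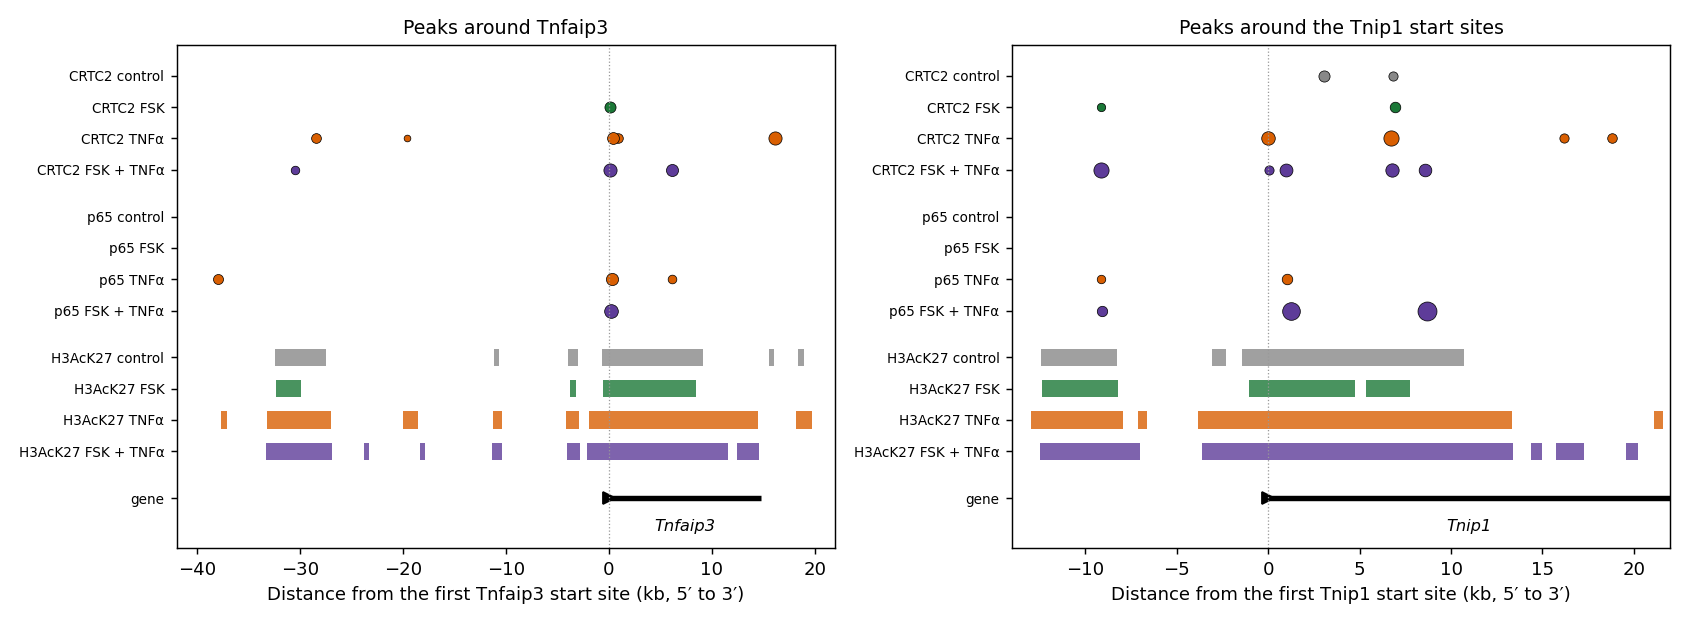
Peaks around Tnfaip3 (left) and the Tnip1 start sites (right) by distance from the first start site (kb), with circles for CRTC2 and p65 peaks (size growing with normalized tags) and bars for H3AcK27 regions. In the windows drawn, p65 circles appear only with TNFα or with FSK and TNFα, and the Tnip1 circles of 33.2 and 30.3 are the largest p65 values.

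CRTC2 peaks were called at the promoters of more of these genes after treatment than in control cells. They were called at 1 of 10 in control cells, 9 after FSK, 10 after TNFα, and 10 with both, against 11.8%, 27.4%, 39.9%, and 29.1% of all genes. Of genes with H3AcK27 at a promoter in control cells, 22.7%, 52.7%, 76.3%, and 55.7% had a CRTC2 promoter peak in the same order. These genes had a median of 3.5 start sites each, against 2 for all genes, and with the first start site alone the counts were 0, 6, 7, and 8. With the 4 lists cut to equal size they were 1, 7, 4, and 6, so that the count after TNFα fell from 10 to 4. A promoter peak in all 3 treated lists and none in control was found for 8 of the 10 genes, compared with 12.5% of all genes and 24.0% of those acetylated genes. The position of the peak was compared between treatments. Of the 9 genes with a promoter peak in the list of FSK alone and in that of TNFα alone, 4 had peaks that overlapped between the lists (Tnfrsf1a, Tnfrsf1b, Ripk1, and Birc3), whereas overlap was seen at 86.4% of all promoters of this kind. Between both treatments and FSK alone it was 6 of 9, against 87.1%, and between both treatments and TNFα alone 6 of 10, against 87.2%. Lack of overlap did not always mean a distant site. Between FSK alone and TNFα alone, the gaps at Traf1, Birc2, Cflar, and Tnip1 were less than a TNFα peak width (157 bp). The gap at Tnfaip3 was larger.

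Overlap of CRTC2 and p65 was concentrated in the library with FSK and TNFα. No gene had such a locus in control cells, 1 had it with FSK (Traf1), 1 with TNFα (Tnfaip3), and 6 with both (Traf1, Traf2, Birc2, Birc3, Tnfaip3, and Tnip1). The shares of all genes were 0.0504%, 0.866%, 1.51%, and 3.89%. The 7 loci with both treatments were the start sites of Tnfaip3 and Birc3, the segment upstream of Birc2, the sites 2.7 kb upstream of Traf2 and 19.2 kb from a Traf1 start site, and 2 at Tnip1. The strongest by CRTC2 were Birc3 (39.0 normalized tags, with 19.5 of p65) and the segment upstream of Birc2 (34.6, with 22.4 of p65). When midpoints had to lie within 100 bp, 4 of these 7 loci were left, and the locus with TNFα was not.

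The degenerate NF-κB consensus was found in 4 of 9 p65 peaks with TNFα and in 7 of 15 with both, against 13.4% and 9.97% of all peaks of those lists, in 200 bp centered on each peak. None of the 5 peaks with FSK held it (1.79% of the list). The exact sequence was in 0 of 9 and 2 of 15 peaks, against 2.2% and 1.56%. The CRE core sequence was in 6 of 26 CRTC2 peaks with FSK, 6 of 46 after TNFα, and 6 of 37 with both, against 26.3%, 15.7%, and 25.2% of the lists, and in 0 of 5 control peaks, against 14.7%.

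H3AcK27 was present at the promoters of all 10 genes in all 4 lists, compared with 51.7% of all genes in control cells, 46.9% after FSK, 51.4% after TNFα, and 49.1% with both. Within 5 kb of the first start site, where region width matters less, Birc3 held 310 normalized tags in control cells, 559 after FSK, 742 after TNFα, and 826 with both. Birc2 followed the same order with 490, 882, 996, and 1150 normalized tags. At Tnfaip3 the values were 572, 420, 898, and 834 normalized tags, and at Tnip1 659, 538, 1190, and 1000. For all 10 genes both libraries with TNFα were above both without it in this window. The median log2 ratios of these genes were 0.59 for TNFα over control, 0.58 for both over control, and 0.65 for both over FSK. Over all promoters they were 0.12, -0.01, and 0.17, so a part of the order was shared by the libraries as a whole. How many of all promoters keep the order is not given here. FSK alone was above control at Tnfrsf1a, Traf1, Birc2, Birc3, and Cflar and below it at Tnfrsf1b, Traf2, Ripk1, Tnfaip3, and Tnip1. The median log2 ratio of FSK to control was -0.12 for the 10 genes and -0.2 for all promoters.

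Acetylation with TNFα was above control at all 10 promoters. By whole regions the median of all promoters was above control too, at log2 0.13. Less that median, 9 of the 10 genes stayed above 0, with Ripk1 at 0.01 and Tnfrsf1a at -0.05. In the window of 5 kb, the median log2 ratio was 0.59 for these genes and 0.12 for all promoters, and 5 genes were at least 1.5-fold higher (Traf1, Birc2, Birc3, Tnfaip3, and Tnip1), against 7.19% of all promoters. By the summed tags of whole regions, 4 were at least 2-fold higher (Traf1 4.12-fold, Birc3 2.31, Tnfaip3 2.13, and Birc2 2.05), against 2.13% of all promoters. Region width differed as well. The regions at Traf1 spanned 4007 bp in control cells and 14523 bp after TNFα, and its tags per kb were 51.7 and 58.7. Per kb of region 2 genes were at least 1.5-fold higher (Birc2 and Birc3), against 3.86%. By whole regions the lowest ratios were 1.05-fold for Tnfrsf1a, 1.10 for Ripk1, 1.24 for Traf2, and 1.38 for Tnfrsf1b. Per kb the lowest was Traf1, at log2 0.18. Genes that serve as markers of other cells also differed in acetylation between libraries, all of which came from the same cell line. In the order control, FSK, TNFα, and both, macrophage markers with a region at a promoter were 1, 1, 2, and 2 of 5, with summed levels of 165.2, 13.2, 625.1, and 118.9 normalized tags and Adgre1, Ptprc, and Itgam at 0 throughout. Endothelial markers were 1, 0, 2, and 1 of 3, with sums of 9.1, 0, 42.6, and 7.4. The 3 acetylated adipocyte markers summed to 748.9, 226.8, 487.7, and 223.9 normalized tags, and the preadipocyte markers to 2333.6, 1841.8, 2264.1, and 2131.1. Their part in the ratios was not tested.

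**Figure D4:**
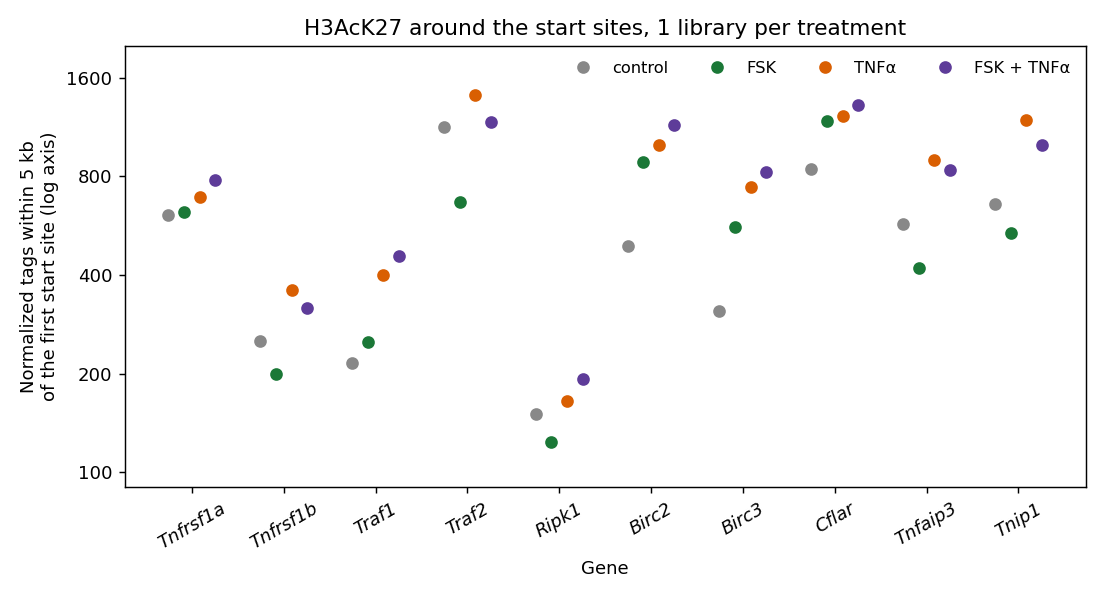
H3AcK27 within 5 kb of the first start site of each gene in normalized tags per 10000000 (log axis), with 1 point per library and no error bars since each treatment has 1 library. TNFα is above control for every gene, where the median log2 ratio of all promoters is 0.12, and Birc3 runs from 310 in control cells to 826 with FSK and TNFα.

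FSK with TNFα was then compared with TNFα alone, between which the marker sums above differed too. The median log2 ratio in the window of 5 kb was 0.14 for the 10 genes and -0.15 for all promoters. By whole regions, Cflar was at least 2-fold lower (1431.8 against 3795.7 normalized tags, log2 -1.41), as were 5.51% of promoters, but its region spanned 22438 bp with TNFα and 7446 bp with both, and the window gave log2 0.12. Over control cells, FSK with TNFα was at least 2-fold higher at Traf1, Birc2, and Birc3 (2.98% of promoters). Within 5 kb each still passed 2-fold (log2 1.09, 1.22, and 1.42), but per kb only Birc2 of them did (0.19, 1.2, and 0.47). Regions grew from 4007 to 7757 bp at Traf1 and from 3875 to 9606 bp at Birc3. FSK alone was at least 2-fold lower at Tnfrsf1b and Traf2 (10.3% of promoters) in the library with the fewest tags, where their regions spanned 4199 and 6767 bp, against 9220 and 25035 bp in control cells. Neither passed 2-fold within 5 kb (log2 -0.33 and -0.75) or per kb (-0.07 and -0.51). FSK with TNFα was at least 2-fold higher than FSK alone at Tnfrsf1b, Traf2, Tnfaip3, and Tnip1 (4.52% of promoters), but at none of the 10 within 5 kb. In the opposite directions 0 of the 10 genes passed 2-fold, where 1.81% of promoters were higher after FSK, 1.73% lower after TNFα, and 6.78% lower after both, each over control.

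Other genes of the pathway were counted in the same way, with no test of the difference. Of 32 further genes (adaptors, caspase-8 and its partners, kinases, ubiquitin enzymes, and survival factors), 1 had a p65 peak in or near it in control cells, 4 after FSK, 8 after TNFα, and 13 with both. Among all genes the shares were 1.9%, 16.9%, 14.9%, and 22.3% in the same order. At promoters p65 was called at 0, 0, 2, and 1 of the 32, where the shares of all genes were 0.0916%, 0.586%, 0.628%, and 1.01%. CRTC2 was at 6, 14, 26, and 19 of the 32 promoters, against 11.8%, 27.4%, 39.9%, and 29.1% of all genes. Of genes with H3AcK27 at a promoter in control cells, the shares were 22.7%, 52.7%, 76.3%, and 55.7%. By score the highest p65 peaks with FSK and TNFα were near Spata2 (score 11, but nearest to the Rnf114 start site) and near Cyld, Casp8, and Tradd (score 8 each). Of the 29 with an H3AcK27 region in control cells, 1 was at least 2-fold higher with TNFα (Ikbkb), against 2.13% of all promoters. Their median log2 ratio was 0.28, against 0.13 for all promoters. The other 3 had no region in control cells, and with TNFα Traf3 held 145.9 normalized tags, Ripk3 11.4, and Map3k5 none.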

How the data were processed

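Peak lists of 12 ChIP-seq libraries were read, and 2 inputs entered only through the values given in the lists. Per the labels, STAR and HOMER were used with mm10. The authors called peaks in each library with HOMER, at 4-fold over input, in factor style for CRTC2 and p65 and in windows of 500 bp joined into regions for H3AcK27. Control and TNFα lists were compared with an untreated input, and the other lists with an FSK input. The deposited signal is a tag number per 10000000 tags, the deposited score counts at most 1 tag per position, and the deposited fold values are ratios to the input or to the surrounding 10 kb. Peaks were assigned by an overlap of 1 bp to genes of GENCODE release M21 with 50 kb either side. Peaks shared by several genes were counted once in totals over genes. Ratios used peaks overlapping in both lists, with conditional exact intervals that treat tags as independent, which repeated tags are not. Motifs were matched in 200 bp on both strands. No test was run, since each combination has 1 library. All 10 genes, and up to 4 of 32 further pathway genes by p65 score, were named. Genes and lists were chosen with earlier results of these data known. Alternatives were 8-fold over input, lists of equal size, peak placement, 10 kb flanks, promoter extent, and motif form. A score of at least 12 and the H3AcK27 ratios were added after the data were seen. The code passed 4 checks on simulated data. Python 3.11.15, pandas 2.3.3, scipy 1.17.1, pysam 0.24.0, and matplotlib 3.10.9 were used.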

Additional observations from a re-analysis of the deposited data

Results flagged for a closer look

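At Traf1, the H3AcK27 regions at the promoters had a log2 ratio of 0.27 for FSK over control and -0.90 for FSK with TNFα over TNFα alone, so the direction of the FSK ratio differed with TNFα. The difference was not tested, and within 5 kb of the start site the ratios were 0.22 and 0.19. At Ripk1 the same ratios were -0.28 and 0.22, and this difference was not tested either. The medians over all promoters were -0.22 and -0.16, and less these the Ripk1 ratios were -0.06 and 0.38.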

How the results depend on the processing

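Of 399 values recomputed under the alternatives, 247 stayed within the spread or within 1.5 times of the value given, 150 moved, and 2 reversed. Further ratios changed sign but were counted as moved or as staying. H3AcK27 at Cflar over control went from log2 -0.8 to 0.68 per kb with both and from -0.99 to 0.52 with FSK. CRTC2 at Tnfrsf1b, both over FSK, went from 0.71 to -0.23 by the score. At Tnip1, FSK over control, it went from 0.33 to -0.37 less the median and was counted as staying. No paired analysis was possible because each combination of antibody and treatment had 1 library. For p65 peaks near the 10 genes, 8-fold over input left 3 with FSK and 5 with TNFα (3 genes), and counting only peaks nearest to one of these genes left 3 with FSK. A score of at least 12, added after the data were seen, left 0, 2, and 6 peaks with FSK, TNFα, and both (0 genes with FSK and 3 with TNFα) and 0 genes with CRTC2 at a promoter in control cells, as did use of the first start site alone. For CRTC2 peaks, flanks of 10 kb gave 2 in control cells, 15 with FSK, and 30 with TNFα. Peaks nearest to one of these genes numbered 2, 14, and 26. Lists of equal size gave 16, 12, and 15 with FSK, TNFα, and both, and 4 and 6 genes with a promoter peak with TNFα and both. At 8-fold, 14 CRTC2 peaks were left with FSK, and 5 and 6 genes had a promoter peak with FSK and with both. Midpoints within 100 bp left 0 co-bound loci with TNFα and 4 with both. The degenerate NF-κB consensus raised matches to 4 and 7 with TNFα and both, and the full CRE lowered them to 2, 1, and 2 with FSK, TNFα, and both. For H3AcK27, the alternatives were added after the data were seen. Less the median, 1 gene was 2-fold higher with FSK and 2 with TNFα over control. Per kb and within 5 kb it was 2 with TNFα over control and 0 with both over FSK. The ratio of both to TNFα at Cflar reversed, to 0.18 per kb and 0.12 within 5 kb. The cause of the other moves was not tested. Lists hold only peaks past their own threshold, so absence from a list is not absence of binding.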

Other observations

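Several CRTC2 peaks counted near these genes belong by position to their neighbors. Of 80 CRTC2 loci near the 10 genes, 58 were in 1 list, 11 in 2, 10 in 3, and 1 in all 4. The same count over all CRTC2 loci is not given here, so whether these genes differ from others in this cannot be told. Outside the promoters of the 10 genes, 5 loci were in all 3 treated lists. They included the start sites of Tubb2a near Ripk1, a tubulin gene (38.3 normalized tags with FSK, 46.8 with TNFα, and 47.8 with both), and of Hint1 near Tnip1 (23.7, 41.6, and 24.5). Another was at the start site of Bphl near Ripk1 (19.5, 9.44, and 12.6). None of these 3 was called in control cells.

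The genes whose strongest CRTC2 and p65 values over the 8 lists were most like those of Tnfaip3 were Wars2, Ptger4, Ttc33, Amotl1, and Olfr373, with Pearson correlations of 0.999 or above across the lists. Ptger4 and Ttc33 share the same peaks. A correlation above 0.9 was found for 220 of 17051 genes compared. Each list has its own library, but the lists share 2 inputs and a pattern of absent peaks in control cells and of p65 with FSK.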
